A study of Mus musculus with 5 samples.

Results

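Elastic fibre genes were followed in aortas of db/db mice and db/+ mice on Affymetrix expression arrays. The set held 10 genes, chosen by name for their place in the elastic fibre, and its probe sets were those whose annotated gene symbol matched 1 of the 10. The annotation gave 14 probe sets for 8 of the genes, out of 12393 genes named on the array. Fbn1 and Efemp2 were named for no probe set, and their expression was not analysed here.

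The study compared male Lepr db/db mice, homozygous for a leptin receptor mutation, with heterozygous Lepr db/+ mice, so the db/+ mice carry 1 copy of the same mutation. Both came from the BKS.Cg-m +/+ Lepr db/J colony of the Jackson Laboratory, whose name also lists the misty allele m. All were 16 to 20 weeks old on a regular chow diet. The db mutation removes the signalling form of the receptor in every tissue, and db/db mice become obese and diabetic, so a difference between the groups is not specific to the vessel. Each array held the RNA of 6 pooled aortas stripped of adventitia and periaortic fat, with 3 pools of db/db (replicates 1, 2 and 3) and 2 pools of db/+ (replicates 2 and 3) analysed here. The spread between arrays is therefore a spread between pools, not between mice.

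Elastic fibres give the aortic wall its recoil. Tropoelastin, the product of Eln, is laid onto a scaffold of microfibrils built from fibrillin-1 (Fbn1) and microfibril-associated glycoproteins such as Mfap5. Fibulin-4 (Efemp2) and fibulin-5 (Fbln5) guide tropoelastin and the crosslinking enzymes to that scaffold, EMILIN-1 (Emilin1) sits at the border of elastin and microfibrils, and the copper-dependent amine oxidases Lox and Loxl1 join the tropoelastin chains. Smooth muscle cells make most of this material in the media, and fibroblasts make it in the adventitia.

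Values are MAS5 signals, the background-corrected brightness of a probe set after each array was scaled to a common mean. Log2 changes are db/db minus db/+ on log2(signal + 16), with the standard error (SE) and 95% interval from limma, and a probe set passed at a Benjamini-Hochberg adjusted p under 0.05 over the 13574 probe sets tested. Low signals were left out of testing, and 13 of the 14 elastic fibre probe sets were kept. The probe set left out was the third of Lox (1437903_at), with signals of 5.8 to 15.3 in db/db and 7.5 and 10.6 in db/+, under the filter level of 40.6. Pairs of arrays had correlations of 0.951 to 0.976 across probe sets, and ratios of 3' to 5' actin signal, a sign of RNA integrity, lay between 1.14 and 1.32 in db/db and at 1.28 and 1.34 in db/+.

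The largest difference of the set was a lower signal of Fbln2, the gene of fibulin-2, in all 3 db/db pools, while Eln, Fbln5 and Loxl1 overlapped between genotypes. None of the 13 probe sets passed the test by limma, where 13 probe sets of the whole table passed (0.0958%), all of them lower in db/db. The count over the whole table was 1 without db/+ replicate 2 and 1 without db/+ replicate 3. At an unadjusted p under 0.05 there was 1 elastic fibre probe set, Fbln2, against 8.16% of all probe sets. The groups did not overlap at 2 elastic fibre probe sets that were lower in db/db (background 12.0%) and at 1 that was higher (background 13.0%). The shares among the 13 are close to those backgrounds. The median log2 change was 0.06 over the 13 probe sets and 0.02 over all tested, and 11 of the 13 intervals lay within a 2-fold difference in either direction.

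**Figure D1:**
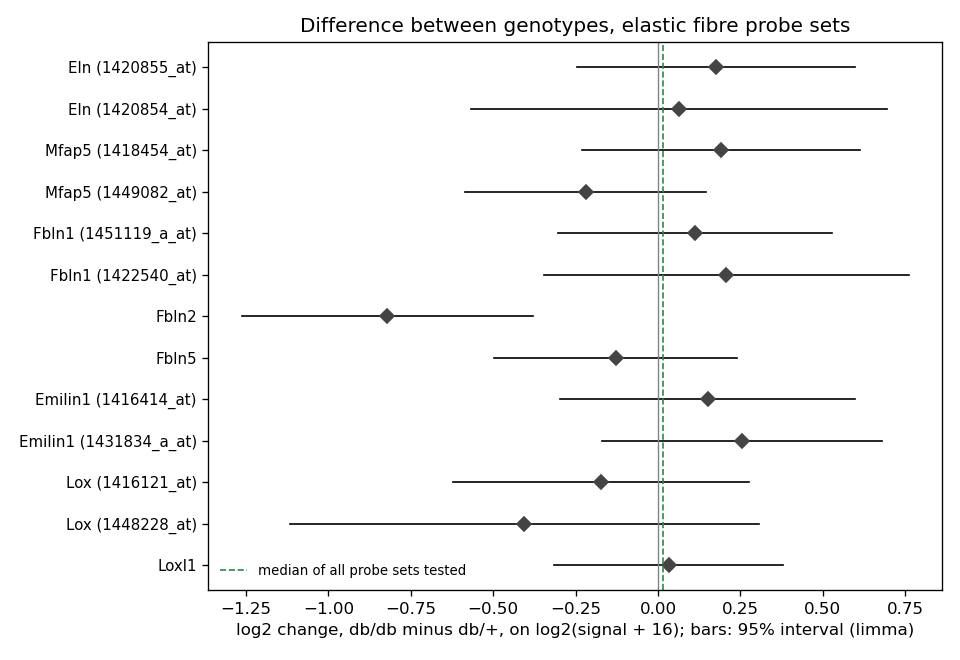
Log2 change of each tested elastic fibre probe set (horizontal axis, db/db minus db/+), with the 95% interval from limma as a bar and the median of all probe sets as a dashed line. The interval of Fbln2, from −1.26 to −0.38, is the 1 that leaves out 0, although its adjusted p of 0.25 did not pass.

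Fibulins are calcium-binding glycoproteins that link tropoelastin, microfibrils and basement membranes. Fibulin-2 binds both tropoelastin and fibrillin-1, and in mice it acts together with fibulin-5 in forming the internal elastic lamina of arteries. The bases before the start of Fbln2 and Emilin1 are shown first, because these are the genes with a RefSeq promoter entry at which a probe set separated the genotypes. The windows are the 250 bases before the annotated start on the plus strand of GRCm38.p6, at chr6:91212514-91212763 for Fbln2 and chr5:30913536-30913785 for Emilin1. Capitals mark matches on either strand to 4 motifs: GGGCGG, the letters bound by Sp1; TATAAA, the core promoter element; TGACTCA, bound by AP-1; and CAGACA, an element read by SMAD proteins.
Fbln2: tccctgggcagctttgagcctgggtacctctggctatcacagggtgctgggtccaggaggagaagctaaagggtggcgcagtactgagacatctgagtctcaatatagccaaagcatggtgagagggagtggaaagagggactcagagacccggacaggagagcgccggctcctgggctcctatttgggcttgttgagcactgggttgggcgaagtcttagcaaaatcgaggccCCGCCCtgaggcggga
Emilin1: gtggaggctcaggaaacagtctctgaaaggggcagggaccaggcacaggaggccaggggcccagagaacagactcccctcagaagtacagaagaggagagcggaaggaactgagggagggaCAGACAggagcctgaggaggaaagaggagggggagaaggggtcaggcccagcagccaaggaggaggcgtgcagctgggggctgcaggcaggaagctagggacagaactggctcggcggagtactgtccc
The Fbln2 window held 1 match to GGGCGG, beginning 16 bases before the start, and the Emilin1 window held 1 CAGACA. The motif GGGCGG occurred in 32.7% and CAGACA in 17.1% of the 32851 windows of the RefSeq table. TATAAA and TGACTCA, present in 12.4% and 4.46% of windows, were in neither, nor in the other 8 windows of the set, which belong to Fbln1, Fbln5, Fbn1 and Efemp2. GGGCGG was found in 7 of the 10 windows of the set, those of Fbln2 and Fbn1, all 3 of Efemp2 and 1 each of Fbln1 and Fbln5. Windows 2 and 3 of Efemp2, with a GC content of 75.6% and 78.8%, overlap and hold the same 5 matches. The windows are therefore not independent of each other. CAGACA was found in 4, those of Emilin1, both of Fbln1 and 1 of Fbln5. GC content was 58.8% for Fbln2 and 63.2% for Emilin1, against a median of 52.4%. A match describes letters and is not a site in use.

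Fbln2 was measured by 1 probe set (1423407_a_at), of a type that reads several transcript forms of 1 gene. Its signals were 305.7, 205.1 and 273.0 in db/db replicates 1, 2 and 3, against 479.3 and 456.8 in db/+ replicates 2 and 3. All 3 db/db pools lay below both db/+ pools, and the highest db/db value was well under the lowest db/+ value. The mean was 261 ± 51.3 in db/db (SD, n = 3) and 468 ± 15.9 in db/+ (SD, n = 2), so db/db pools held 55.8% of the db/+ signal. The log2 change was −0.82 (SE 0.19, interval −1.26 to −0.38, limma adjusted p = 0.25), rank 134 of the 13574 probe sets by p. With each array left out in turn it ranged from −0.94 to −0.67. The difference lay outside the spread between pools but did not pass after adjustment over all probe sets.

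Endothelial and macrophage markers had lower signals in db/db in the same arrays as Fbln2. The summed signal of 10 endothelial markers was 1845 to 2164 in db/db and 2530 to 2854 in db/+, and that of 10 macrophage markers 2285 to 2840 in db/db and 3917 to 5046 in db/+. Groups did not overlap, lower in db/db, at 7 of the 10 endothelial and 9 of the 10 macrophage markers (background 12.0%). None was higher without overlap (background 13.0%). Within db/db, the endothelial sum was lowest in replicate 1, where Fbln2 was highest. The macrophage sum was lowest in replicate 2, where Fbln2 was lowest. For 5 measured mesothelial markers the sums were 293 to 338 in db/db and 491.8 and 651 in db/+, mostly through Prg4 and Upk3b. With Msln, 3 of the 5 did not overlap, lower in db/db (background 12.0%), while Krt19 and Wt1 did. Msln, Krt19 and Wt1 were under the filter level, as was Itgam among the 9 macrophage markers. The backgrounds cover tested probe sets only. For 6 cartilage markers the sums were 286 to 306 in db/db and 480 and 562 in db/+, carried by Acan and Comp. Sox9, also under the filter level, was higher in every db/db pool, 3 markers overlapped, and Col2a1 and Matn1 were under a signal of 16 on every array. The part of these markers in the Fbln2 difference was not tested. In the RNA of pooled tissue, fewer cells of a type and less RNA per cell cannot be told apart.

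Fbln5, the fibulin that brings Loxl1 and tropoelastin together, did not pass. Its signals were 2292, 1870 and 2068 in db/db replicates 1, 2 and 3, against 2217 and 2312 in db/+ replicates 2 and 3. The groups overlapped through db/db replicate 1. The log2 change was −0.13 (SE 0.16, adjusted p = 0.89), and its interval, −0.50 to 0.24, corresponds to 0.71-fold to 1.18-fold.

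Fbln1 encodes fibulin-1, a fibulin of elastic lamellae and basement membranes, and had 2 probe sets. The brighter (1451119_a_at) had signals of 695.6, 510.8 and 527.4 in db/db replicates 1, 2 and 3, against 519.2 and 537.6 in db/+. The other (1422540_at) had 702.1, 508.5 and 388.7 in db/db and 485.1 and 410.9 in db/+. At both, db/db replicate 1 was the highest array and db/db replicate 3 lay below at least 1 db/+ pool, so the groups overlapped. Log2 changes stood at 0.11 (SE 0.18, adjusted p = 0.92) and 0.21 (SE 0.24, adjusted p = 0.89). Without db/db replicate 1 they were −0.025 and −0.0056, so the positive direction rested on that pool.

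**Figure D2:**
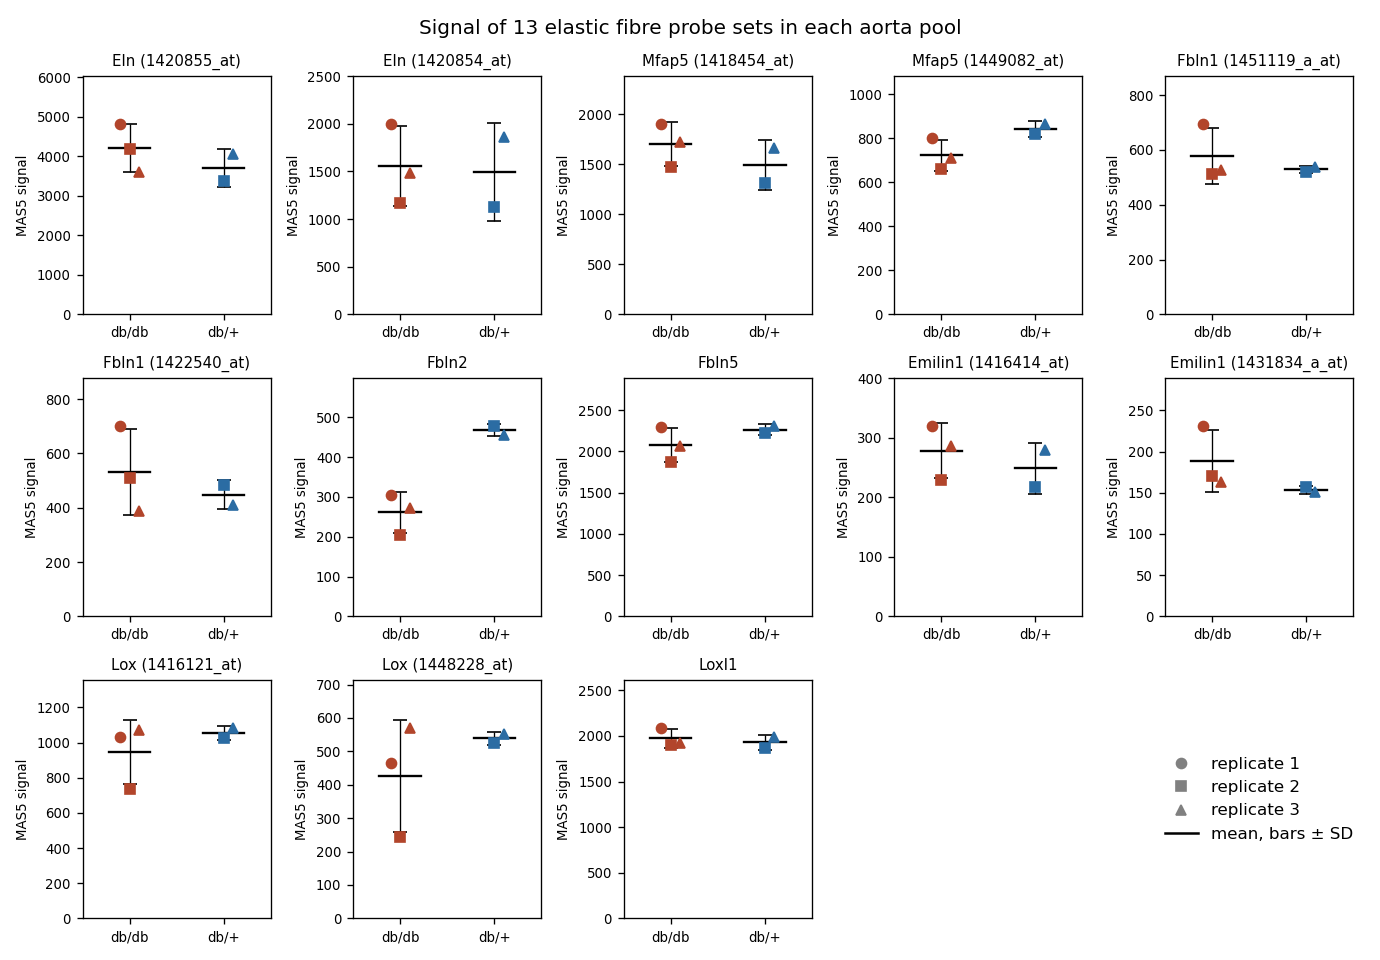
MAS5 signal (vertical axes, starting at 0) of the 13 tested elastic fibre probe sets in each pool, db/db in red left of db/+ in blue, with symbols for the replicate number, a line at the mean and bars of 1 SD (n = 3 and n = 2). Fbln2 is the panel in which the groups stand clearly apart, while Eln, Fbln5 and Loxl1 overlap.

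The core protein was measured by 2 Eln probe sets, both bright. At 1420855_at the signals were 4825, 4190 and 3597 in db/db replicates 1, 2 and 3, against 3361 and 4052 in db/+ replicates 2 and 3. At 1420854_at they were 2001, 1170 and 1484 in db/db, against 1130 and 1857 in db/+. Replicate 1 of db/db was the highest array and db/+ replicate 2 the lowest at both, with overlap in between. The means at the brighter probe set were 4204 ± 614 in db/db (SD, n = 3) and 3707 ± 489 in db/+ (SD, n = 2), which differ by 0.18 on the log2 scale (SE 0.18, interval −0.25 to 0.60, adjusted p = 0.87). The second had a log2 change of 0.06 (SE 0.28, interval −0.57 to 0.69, adjusted p = 0.97), which was −0.14 without db/db replicate 1 and −0.29 without db/+ replicate 2. The interval at the brighter probe set corresponds to 0.84-fold to 1.51-fold, and its log2 change was 0.07 without db/db replicate 1, 0.04 without db/+ replicate 2 and 0.31 without db/+ replicate 3.

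The genes whose signals varied most like Eln over the 5 arrays were Ap3m2, Minpp1, Kif3b, Rad9a and Dlk1. Likeness was the root mean square difference of log2 deviations from each gene's own mean, 0.024 for Ap3m2 to 0.033 for Dlk1, among 7440 genes that varied at least 0.5 times as much as Eln. Within the set, Fbln1 ranked 516, Mfap5 ranked 923, Emilin1 ranked 1416 and Fbln5 ranked 2327 on that scale. Lox and Fbln2 were far from Eln, at ranks 5140 and 7165. Loxl1 varied less than 0.5 times as much as Eln and was not ranked. The ranking over 5 arrays is a description.

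Mfap5, a microfibril glycoprotein also known as MAGP-2, gave different pictures at its 2 probe sets. At 1418454_at the signals were 1906, 1474 and 1723 in db/db replicates 1, 2 and 3, against 1313 and 1666 in db/+, with overlapping groups and a log2 change of 0.19 (SE 0.18, adjusted p = 0.86). At 1449082_at they were 799.3, 660.2 and 709.0 in db/db, against 817.4 and 866.0 in db/+. There every db/db pool was below both db/+ pools, with a log2 change of −0.22 (SE 0.16, interval −0.59 to 0.15, adjusted p = 0.80). The log2 ratio of the first to the second probe set was 1.16 to 1.28 in db/db and 0.68 and 0.94 in db/+, higher in each db/db pool than in either db/+ pool. That ratio was not tested, and no direction can be given for Mfap5 as a whole. Of the 5 genes with 2 tested probe sets, the other 4 had log2 changes of the same sign at both.

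Emilin1 was somewhat higher in db/db without passing the test. At 1431834_a_at its signals were 231.5, 170.1 and 163.3 in db/db replicates 1, 2 and 3, against 156.5 and 150.4 in db/+, so that the groups did not overlap, and the log2 change was 0.25 (SE 0.19, interval −0.17 to 0.68, adjusted p = 0.80). At 1416414_at they were 320.6, 228.4 and 286.1 in db/db, against 217.9 and 279.5 in db/+, overlapping, with a log2 change of 0.15 (SE 0.20, adjusted p = 0.90). Replicate 1 of db/db was the highest array at both. Without it the log2 changes were 0.11 and 0.05, and without db/+ replicate 2 that of 1416414_at was −0.018.

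Of the crosslinking enzymes, Lox was low in 1 pool and Loxl1 was nearly level in all. The signals of Lox at 1416121_at were 1033, 738.8 and 1072 in db/db replicates 1, 2 and 3, against 1029 and 1085 in db/+ replicates 2 and 3. At 1448228_at they were 465.6, 243.5 and 570.9 in db/db, against 524.7 and 552.9 in db/+. Only db/db replicate 2 stood clearly below the rest at both, and db/db replicate 3 lay at db/+ levels. The log2 changes were −0.17 (SE 0.20, adjusted p = 0.88) and −0.41 (SE 0.31, adjusted p = 0.81), and without db/db replicate 2 they were −0.0064 and −0.061. That pool also had the highest cardiac signal, with a sum of 3967 over 10 cardiac muscle markers. The cardiac sums were 821 and 995 in db/db replicates 1 and 3 and 1154 and 1498 in db/+. Its sum of brown adipocyte markers, 10460, was likewise the highest of any pool. Its white adipocyte sum, 11909, was the highest too, but 5654 of it was Fabp4. Fabp4, Retn and Cidec were highest in that pool, while Adipoq, Lep, Pnpla2 and Lipe lay below both db/+ pools. The median deviation of the white adipocyte list from the db/+ mean was −0.07 there. The part of these tissues in the Lox values was not tested.

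Loxl1, the oxidase that fibulin-5 tethers to the fibre, had signals of 2091, 1906 and 1926 in db/db replicates 1, 2 and 3, against 1871 and 1987 in db/+. The groups overlapped, and the means were 1974 ± 102 in db/db (SD, n = 3) and 1929 ± 81.5 in db/+ (SD, n = 2). Its log2 change of 0.03 (SE 0.15, adjusted p = 0.97) had the narrowest interval of the 13, 0.80-fold to 1.30-fold. The sign was negative without db/db replicate 1 (−0.0091) or without db/+ replicate 2 (−0.010), and with median centring (−0.0046) or quantile normalization (−0.012).

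Signals of the set also differed between pools of 1 genotype. Replicate 1 of db/db had the highest signal of the 5 arrays at 8 of the 13 probe sets, where 28.1% of all probe sets tested had their highest there. Its median deviation from the db/+ mean was 0.36 over the 13 probe sets on the log2 scale, against 0.03 over all. Replicate 2 of db/db had the lowest signal at 6 of the 13 (22.8% of all probe sets) and a median deviation of −0.11, and db/db replicate 3 had −0.0018. The db/+ pools differed as well, with the lowest signal in db/+ replicate 2 at 5 of the 13 (19.2% of all probe sets). Their median deviations, which mirror each other around their own mean, were −0.038 in replicate 2 and 0.038 in replicate 3. Probe sets of a gene share its RNA and are not independent of each other.

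The marker signals of the cells that make elastic fibres followed part of this order. The summed signal of 14 smooth muscle markers was 49553, 46351 and 39774 in db/db replicates 1, 2 and 3, against 37234 and 41605 in db/+. That is the order of the arrays at the brighter Eln probe set. At 1420854_at of Eln the order differed, as db/db replicate 2 (1170) lay below db/db replicate 3 (1484) and db/+ replicate 3 (1857). The summed signal of 13 measured fibroblast and adventitia markers was 32508, 29581 and 27289 in db/db, against 27393 and 29379 in db/+. No smooth muscle or fibroblast marker passed the test, and the medians of the lists' log2 changes were 0.19 and 0.13. Markers of both cell types were thus bright on every array, fibroblast markers also after the adventitia had been stripped. Fat cell markers, too, gave bright sums on every array, although periaortic fat had been stripped. For 7 measured white adipocyte markers the sums were 7130, 11909 and 9387 in db/db, against 11450 and 10927 in db/+. For 6 brown adipocyte markers they were 5456, 10460 and 9362 in db/db, against 6692 and 7736 in db/+. Replicate 1 of db/db, the highest array in the smooth muscle sum, had the lowest white adipocyte, brown adipocyte and cardiac sums of all arrays. How far the smooth muscle, fat or cardiac signal enters the elastic fibre values was not tested.

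**Figure D3:**
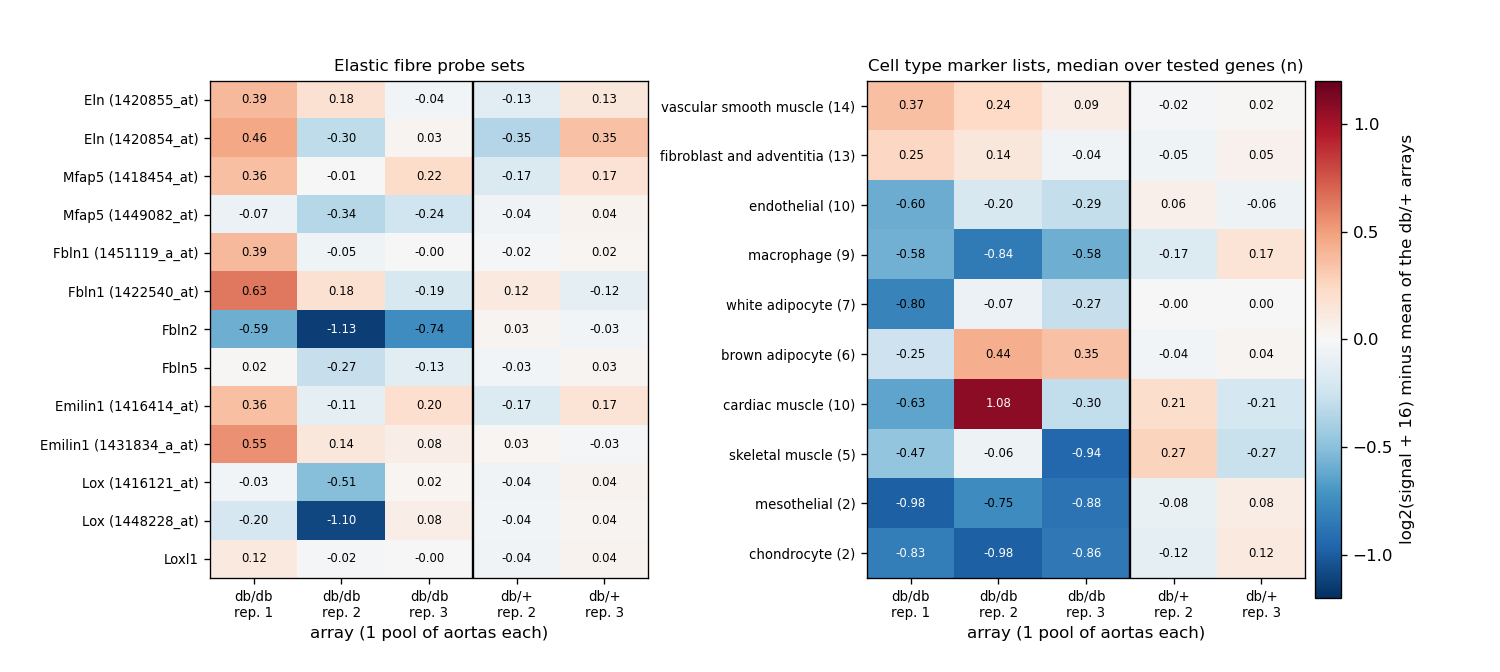
Log2(signal + 16) of each array minus the mean of the db/+ arrays, for the 13 elastic fibre probe sets (left) and as the median over the tested genes of each cell type marker list (right, number of genes in brackets), with db/db pools left of the line and db/+ pools right of it. Replicate 1 of db/db is above db/+ at 9 of 13 probe sets and in smooth muscle markers. It is below db/+ in white adipocyte, brown adipocyte and cardiac markers. Replicate 2 of db/db combines low Lox with high cardiac and brown adipocyte markers.

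Other genes of the elastic fibre pathway were taken from 4 fixed lists. Of 72 genes 63 had a probe set and 56 were tested, 1 probe set for each. By limma 0 passed in either direction, while 7 genes were lower (background 4.19%) and 1 was higher (background 3.97%) at an unadjusted p under 0.05. Their median log2 change was −0.04. Groups did not overlap at 9 genes lower in db/db (background 12.0%) and at 4 higher (background 13.0%), out of 56.

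Among 14 tested genes of microfibrils and elastic fibres, 4 of the 7 lower genes were found, namely Efemp1, Fbln7, Ltbp2 and the proteoglycan gene Vcan (log2 change −0.46, with −0.63 and −0.36 at its other probe sets). Efemp1, the gene of fibulin-3, had signals of 86.3, 132.7 and 103.7 in db/db replicates 1, 2 and 3, against 183.6 and 182.1 in db/+ (log2 change −0.70, adjusted p = 0.33). Fbln7, a further fibulin gene, had 214.9, 256.4 and 183.9 in db/db, against 312.8 and 320.2 in db/+ (log2 change −0.52, adjusted p = 0.47). All db/db pools were below all db/+ pools at both, as at Fbln2. Ltbp2, a fibrillin-binding protein of microfibrils, had 328.3, 376.7 and 291.1 in db/db, against 471.1 and 538.7 in db/+ (−0.59, adjusted p = 0.38). Ltbp4, which binds fibulin-5 and carries latent TGF-beta, was the 1 gene on the higher side, with 2009, 1771 and 1615 in db/db, against 1345 and 1219 in db/+ (0.48, SE 0.17, adjusted p = 0.47). None of these passed after adjustment. The median of the list was −0.04.

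Elastin-degrading proteases and their inhibitors held the lowest log2 changes. Slpi, an inhibitor of neutrophil elastase, had signals of 155.3, 139.5 and 110.6 in db/db replicates 1, 2 and 3, against 375.4 and 339.1 in db/+, and its log2 change was −1.31 (SE 0.18, adjusted p = 0.056). Timp4, an inhibitor of matrix metalloproteinases, had 190.0, 194.0 and 206.3 in db/db, against 403.8 and 428.9 in db/+. Its log2 change was −1.02 (SE 0.15, adjusted p = 0.061), with −0.61 at the other probe set. The groups stood apart at both, and neither passed. Over 15 alternatives Slpi passed in 7, with adjusted p from 0.020 to 0.51, and Timp4 passed in 4, with adjusted p from 0.024 to 0.54. Ctss, the elastin-degrading cathepsin S of macrophages, had 284.0, 206.7 and 222.5 in db/db, against 405.7 and 506.5 in db/+ (−0.90, adjusted p = 0.20), in the arrays in which the macrophage markers above were also lower. For Timp1 the log2 change was −0.56 (adjusted p = 0.68), db/db signals being 206.7 to 251.5 and the db/+ pools far apart, at 240.5 and 523.0. The elastase genes Elane and Mmp12 had mean signals of 13.1 and 5.67 in db/db and 13.5 and 15.2 in db/+, under the filter level. Mmp7, a further protease gene under the filter level and so not tested, was higher in every db/db pool than in either db/+ pool. Its mean signal was 33.1 ± 18.8 in db/db (SD, n = 3) and 8.8 ± 0.42 in db/+ (SD, n = 2). The median over the 13 tested genes was −0.06.

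Genes of crosslinking, copper supply and tropoelastin handling showed 0 of 15 at an unadjusted p under 0.05 in either direction. The smallest p values belonged to Fn1 (fibronectin, log2 change −0.37, adjusted p = 0.63), Bmp1 (the proteinase that activates Lox, −0.37, adjusted p = 0.75), Rin2 (0.22) and Neu1 (a sialidase of the elastin receptor complex, −0.18, with 0.22 at another probe set). Fn1 had 3173, 2597 and 2863 in db/db replicates 1, 2 and 3, against 3434 and 4030 in db/+, without overlap. The copper transporter gene Atp7a had −0.11 (SE 0.21). Receptors and TGF-beta signalling genes likewise showed 0 of 14. There Tgfb3, a TGF-beta ligand, had 0.30 (SE 0.16, adjusted p = 0.70), the inhibitory Smad7 had −0.29, the fibronectin receptor chain Itga5 had −0.25 with −0.49 at its other probe set, and Tgfbr1 had −0.16, with −0.36 and 0.16 at its other probe sets.

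**Figure D4:**
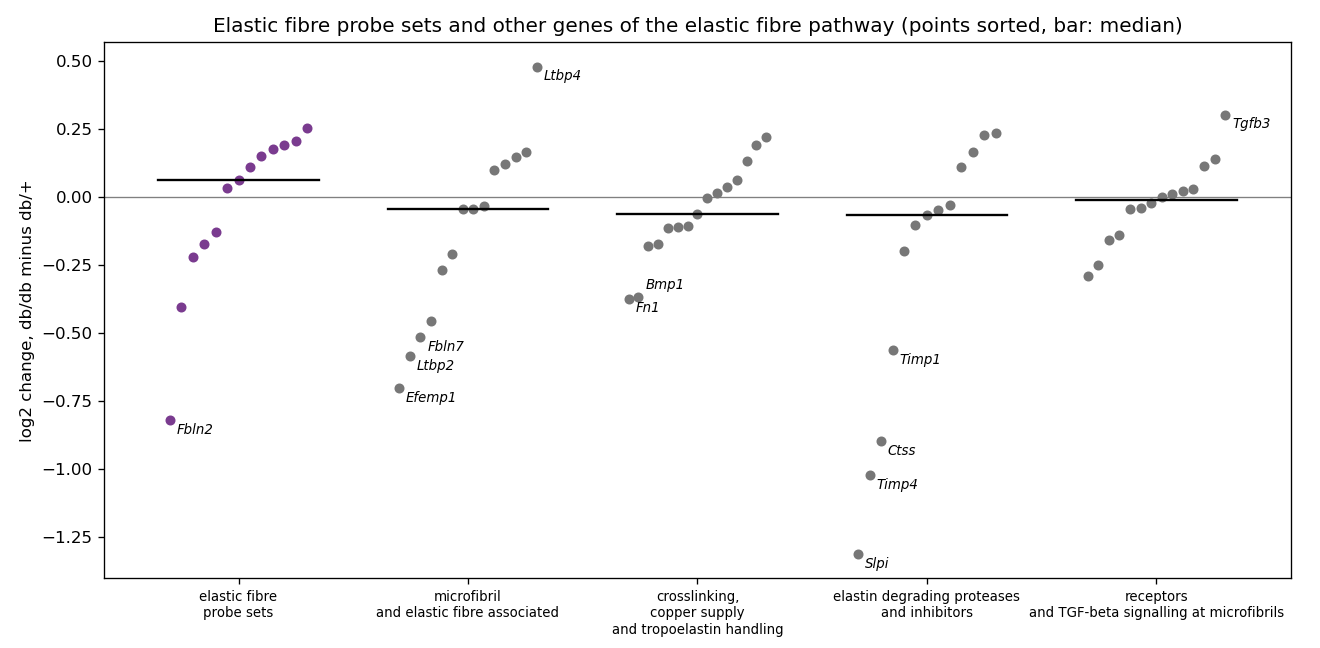
Log2 change (vertical axis, db/db minus db/+) of the 13 elastic fibre probe sets (purple) and of the tested genes of 4 further lists (grey), sorted within each list, with a bar at the median. The medians lie between −0.06 and 0.06, and Fbln2, Efemp1, Ctss, Timp4 and Slpi lie lowest in their lists.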

How the data were processed

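The authors deposited linear signal intensity values made with MAS5 (version not stated), per the submitters' processing notes. The 2% trimmed mean was 150.05 on every array, so no further normalization was done. Of 22690 probe sets, 64 controls were left out. The platform annotation gave 1 symbol to 20380 of the rest, several to 691 and none to 1555, and the last 2 kinds were tested without a name. Probe sets with a mean signal above the 40th percentile (40.6) entered a two-sided limma test (version 3.58.1, R 4.3.3, lmFit and eBayes, no covariates, 3 residual and 5.39 prior degrees of freedom). A gene in a list was read by its brightest probe set. All probe sets of the 10 genes are named, and of each list the 4 genes with the smallest p. Dlk1 and 4 others were named by their likeness to Eln, and Vcan, Atp7a, Elane, Mmp12 and Mmp7 after their values were seen. The members and lists were chosen with earlier results of these data known. Promoters came from RefSeq, GRCm38.p6, matching 6 of the 10 genes. The build used to design the array is not given in the sources used here. The test was tried on simulated data. Precision is limited by the number of arrays, and nothing in the labels beyond the pools gives a batch.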

Additional observations from a re-analysis of the deposited data

How the results depend on the processing

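None of the elastic fibre probe sets passed under any of the 15 alternatives tried (limma, other settings kept), and their median log2 change ranged from −0.025 to 0.17 with an array left out. Fbln2 ranged from −0.94 to −0.67 with an array left out and from −0.94 to −0.72 otherwise, with adjusted p of at least 0.14. Of all probe sets 13 passed, against 3 with a pseudocount of 1, 37 with 64, 1 with no filter, 35 with a filter at the 60th percentile, 21 with median centring, 41 with trend and robust, 48 with array weights, 49 at a threshold of 0.1, and 1 to 13 with an array left out. Of the 56 list genes 0 passed, against 2 with a pseudocount of 64, the 60th percentile filter, trend and robust, array weights or a threshold of 0.1 (each time Slpi and Timp4), and 1, Slpi, with median centring or when all probe sets of a gene were averaged. Leaving out an array gave 0. Signs turned for values close to 0. Loxl1 had −0.0046 with median centring and −0.012 with quantile normalization, and −0.010 to 0.075 with an array left out. Mfap5 had −0.014 with the mean of its probe sets. With an array left out Eln ranged from 0.043 to 0.31, Fbln1 from −0.025 to 0.19 and Emilin1 from −0.018 to 0.32. The cause of these moves was not tested.

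Both groups have replicates 2 and 3, but no label says that a number marks a shared litter or day. Same-numbered arrays deviated from their group means with r = 0.11 for number 2 and 0.00051 for number 3. The differently numbered db/db replicate 1 and db/+ replicate 3 also had r = 0.11. The deviations of 2 db/+ arrays from their own mean mirror each other, so these values cannot show whether the numbers mark pairs. With the replicate number as a block, 22 probe sets passed in all, with 1 list gene (Slpi) and 0 elastic fibre probe sets. Fbln1 had −0.025 and Loxl1 had −0.0091, and the median was −0.025. Only db/db has a replicate 1, so that fit took the genotype difference from replicates 2 and 3 alone. Its log2 changes are therefore those of the fit without db/db replicate 1. A single db/+ array remained in each fit without a db/+ pool, and it was assumed to vary like the others.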
